A study of Mus musculus with 6 samples.

Results

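Change with time in cultures that received only vehicle was described from 2 of the 6 arrays of the series, the vehicle array at 72 h and the vehicle array at 24 h. Bone marrow cells of Spic(igfp/igfp) mice, the genotype of all 6 arrays, in which both copies of Spic, a transcription factor gene of macrophages, are the igfp allele, had been grown with 20 ng/ml GM-CSF and 10% fetal calf serum. On day 6 of culture they received vehicle (0.15 M NaCl with 10% NH4OH) or, on the other 3 arrays, 80 µM heme (the unit is spelled µm in the labels). Adherent cells were taken 6, 24 or 72 h later, and floating cells were discarded. The sources used here do not give the content of the igfp allele, or whether separate mice or cultures supplied the arrays. Each gene was read from 1 probe set, the brightest over the 6 arrays of those that name a single gene, and a gene was kept where its highest level reached 5.37, the median of the whole table, which left 11516 genes. A difference is the log2 level at 72 h minus that at 24 h. With 1 array a side no difference has a replicate check and none was tested.

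GM-CSF drives marrow precursors to divide and to become macrophages and dendritic cells, and such cultures also hold granulocytes that are lost as they age. Cells that leave the cell cycle stop making the kinases, kinesins and cyclins of mitosis. Sterol synthesis is run by the transcription factor SREBP2, which is held in the endoplasmic reticulum when sterols are plentiful, and macrophages that have taken up cholesterol export it through LXR targets such as Abca1 and Apoe.

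Array medians over the 35556 probe sets were 5.34 at 24 h and 5.39 at 72 h in vehicle, and the 2 columns correlated with r = 0.985 across probe sets, which are not independent replicates. Macrophage markers were well above the level filter on both vehicle arrays: all 6 with a probe set lay above it, with Csf1r at 10.93 and 11.17, Adgre1 at 9.73 and 9.89 and Cd68 at 11.90 and 12.01 at 24 and 72 h. Mertk stood at 9.36 and 9.86, while Fcgr1 (8.93 and 8.55) and Mrc1 (10.30 and 10.15) were lower at 72 h. Of 6 dendritic cell markers 4 lay above it, among them Itgax (10.96 and 10.99) and H2-Ab1 (11.89 and 11.70), whereas Zbtb46 (4.91 and 4.92) and Flt3 (4.20 and 4.34) lay below it. None of 4 mast cell and basophil markers or of 3 T, NK and B cell markers reached the filter on any array. In a mixed culture, fewer cells of a type and less RNA per cell cannot be told apart.

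At 72 h, 59 genes were at least 2-fold higher than at 24 h and 84 at least 2-fold lower, which is 0.512% and 0.729% of the 11516 genes. The median difference of all genes was -0.04, with an SD across genes of 0.31. Differences ran from -4.05 (Cyp4a12b) to 2.42 (Apoe). Of the 59 higher genes 7, and of the 84 lower genes 2, were predicted genes or olfactory receptors and are counted but not named. Just inside the 2-fold line lay Ckb (1.0006) and Gbp7 (-1.0059), and just outside it Spopfm2 (0.9879) and Plbd1 (-0.9983). Where 2 probe sets of a gene were both above the filter on the 2 arrays (634 genes), their differences lay a median of 0.09 apart, with a 95th percentile of 0.48. That gap measures the probes, not the cultures. With levels below 5.37 set to 5.37, 44 higher and 66 lower genes remained. A fold that rests on such a level is written as "at least" below.

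**Figure D1:**
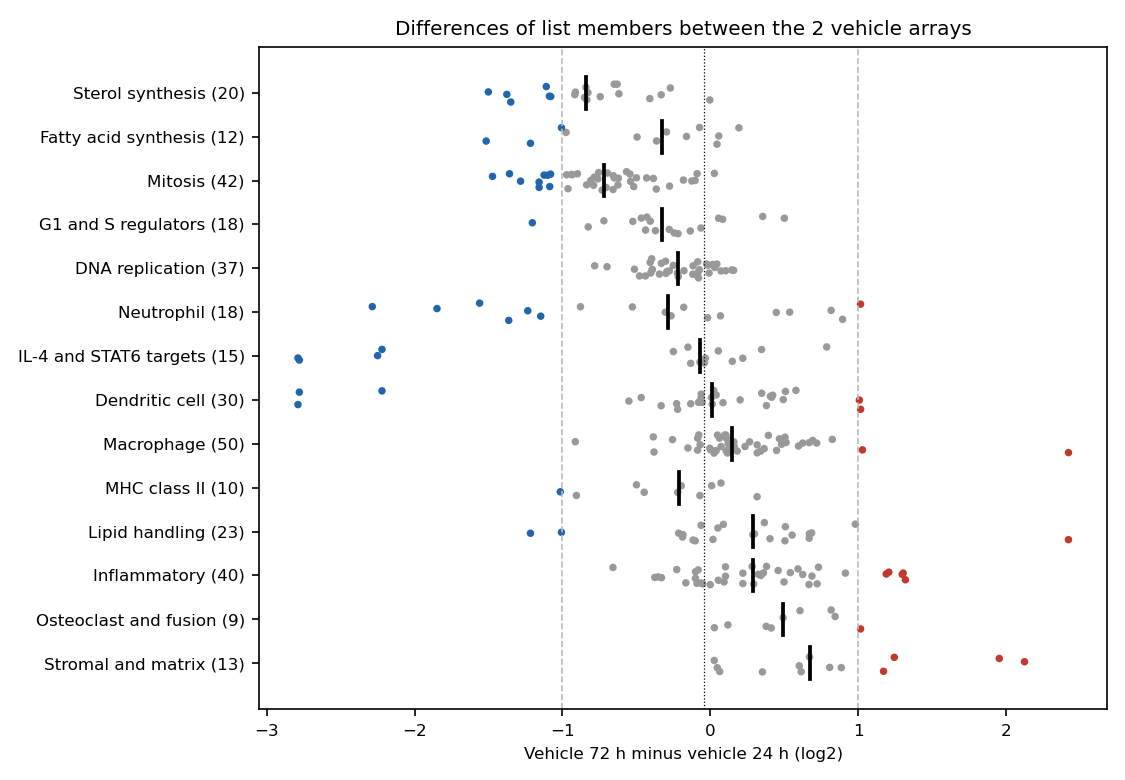
Each point is 1 gene, placed by its level at 72 h minus that at 24 h on the vehicle arrays (log2), in rows for 14 gene lists with the number of genes kept in brackets; thick bars mark list medians, the dotted line the median of all genes (-0.04), dashed lines 2-fold, red and blue points genes past them, and the vertical scatter within a row has no meaning. Sterol synthesis (median -0.84) and mitosis (-0.72) lie furthest left and stromal genes (0.67) furthest right of the lists drawn.

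Sterol synthesis genes were lower at 72 h throughout the pathway. All 20 kept genes of the list had negative differences, 6 of them at 2-fold or more, against 57.8% of all genes below 0 and 0.729% at 2-fold lower. Their median was -0.84, beside -0.04 for all genes. Lanosterol synthase Lss (probe set 10364194), which closes the ring system, stood at 7.68, 7.16 and 5.66 at 6, 24 and 72 h in vehicle, 2.83-fold lower at 72 h than at 24 h. Farnesyl diphosphate synthase Fdps had levels of 9.31, 8.35 and 6.97 at 6, 24 and 72 h, a difference of -1.38. The 72 h array was the lowest of the 3 vehicle arrays for both genes. Cyp51, which removes a methyl group from lanosterol, stood at 9.02, 8.75 and 7.40 at 6, 24 and 72 h (difference -1.35). Squalene synthase Fdft1 (-1.11), Nsdhl, which helps remove the methyl groups of lanosterol (-1.09) and isopentenyl diphosphate isomerase Idi1 (-1.08) completed the 6. Fdft1 and Idi1 each had another probe set above the filter, with differences of -0.97 and -1.09.

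The other enzymes lay between -0.92 and 0, from squalene epoxidase Sqle (-0.92), Msmo1 (-0.91) and HMG-CoA synthase Hmgcs1 (-0.83), to Tm7sf2 (-0.27) and Dhcr7, whose level was 8.73 on both arrays. The sterol carrier Stard4 (-0.85), the SREBP retention factor Insig1 (-0.41) and Srebf2 itself (-0.33) were lower by less than 2-fold. On the separate heme arrays the median over the same 20 genes was -0.90 between 24 and 72 h, beside 0.01 for all genes. Of the 20, 8 were at 2-fold or more lower there (0.947% of all genes were).

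**Figure D2:**
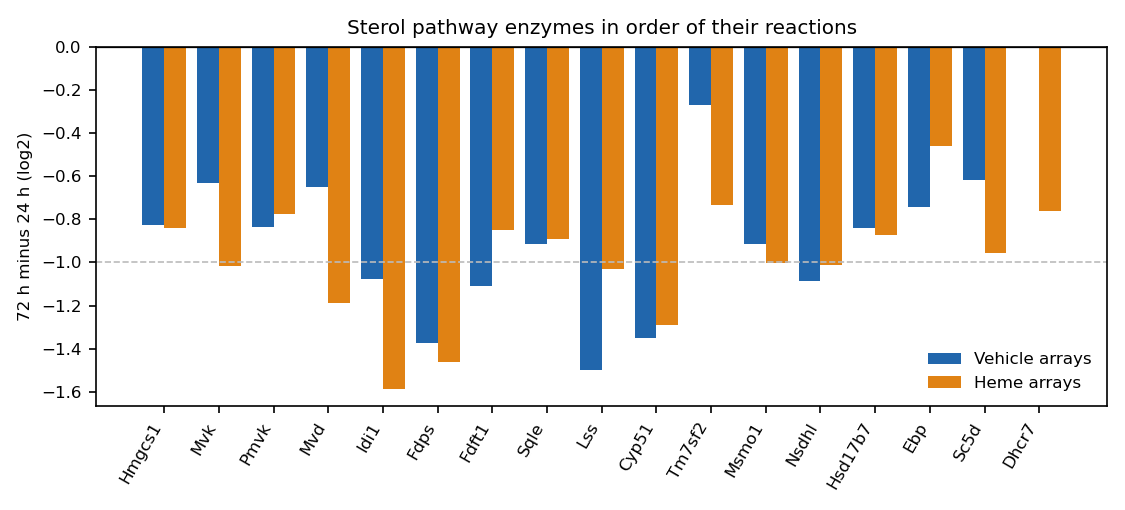
Bars give the level at 72 h minus that at 24 h (log2) on the vehicle arrays (blue) and on the heme arrays (orange) for 17 enzymes in the order of their reactions; the dashed line marks 2-fold, and each bar is 1 pair of arrays. Vehicle bars reach -1.50 for Lss and are absent to the eye for Dhcr7, the last enzyme, where the heme pair gave -0.76.

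Fatty acid genes were lower in part. Of 12 kept genes 3 were at 2-fold or more lower (0.729% of all genes were) and none at 2-fold higher, with a median of -0.33. Fads2, a desaturase of polyunsaturated fatty acids, stood at 9.22, 7.92 and 6.40 at 6, 24 and 72 h in vehicle and at 9.81, 8.72 and 6.52 with heme. Stearoyl-CoA desaturases Scd1 and Scd2 differed by -1.22 and -1.01, and the elongase Elovl6 by -0.98. Scd2 lay under 2-fold after a second quantile normalization and after cyclic loess (-0.97 and -0.94). Fatty acid synthase Fasn (-0.50) and ATP citrate lyase Acly (-0.36) differed less, and Fads1 (0.06), a desaturase like Fads2, and the elongase Elovl5 (0.19) lay slightly above 0.

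The windows before the transcription starts of 3 sterol genes are shown because these genes were lower together and their promoters are known as sites of SREBP and its partner NF-Y. Sequences are the 250 bases before the start from RefSeq on GRCm38.p6, read on the gene's strand. They lie at chr13:119690101-119690350 (+ strand) for Hmgcs1, chr5:4104698-4104947 (- strand) for Cyp51 and chr10:76531355-76531604 (+ strand) for Lss. Capitals mark CCAAT on either strand (ATTGG on the other) and, in Hmgcs1, TCACCCCAC, a match to the sterol element searched as TCACNCCAC.
Hmgcs1: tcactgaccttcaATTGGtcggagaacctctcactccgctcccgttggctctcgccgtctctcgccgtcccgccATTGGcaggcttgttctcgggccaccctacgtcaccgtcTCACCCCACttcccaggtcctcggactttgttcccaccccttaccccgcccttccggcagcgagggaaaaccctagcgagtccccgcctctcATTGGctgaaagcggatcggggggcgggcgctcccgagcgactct
Cyp51: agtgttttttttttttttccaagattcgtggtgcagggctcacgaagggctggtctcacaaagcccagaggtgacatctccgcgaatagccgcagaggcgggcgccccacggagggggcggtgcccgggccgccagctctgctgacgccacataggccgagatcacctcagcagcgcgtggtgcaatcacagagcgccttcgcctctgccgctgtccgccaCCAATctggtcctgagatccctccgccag
Lss: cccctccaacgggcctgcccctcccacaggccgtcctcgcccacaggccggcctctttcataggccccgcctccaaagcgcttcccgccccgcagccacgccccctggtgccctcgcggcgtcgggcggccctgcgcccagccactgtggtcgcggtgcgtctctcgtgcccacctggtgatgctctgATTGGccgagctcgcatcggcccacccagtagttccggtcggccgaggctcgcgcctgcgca
A CCAAT match was present in 15 of the 16 sterol genes that had a window (93.8%), against 3340 of 9291 kept genes with one (35.9%). The exception was Dhcr7, whose difference was -0.0033 in vehicle and -0.76 with heme. No link between a match and a difference was tested. The letters TCACNCCAC were found in 1 of the 16 (6.25%), Hmgcs1, and in 0.926% of all windows. A match is a description of the letters and no measure of binding.

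Mitosis genes were lower at 72 h in nearly every member. Of 42 kept genes 41 lay below 0, and 9 were at 2-fold or more lower (0.729% of all genes were), with none at 2-fold higher. The median was -0.72. Birc5, survivin of the chromosomal passenger complex (probe set 10382998), stood at 8.04, 6.77 and 5.29 at 6, 24 and 72 h in vehicle and at 7.51, 6.73 and 5.10 with heme at the same times. Its 72 h vehicle level lay below the filter, so it was at least 2.62-fold lower than at 24 h. The proliferation marker Mki67 had vehicle levels of 8.50, 7.28 and 6.12 at 6, 24 and 72 h, 2.23-fold lower, and heme levels of 8.52, 7.69 and 6.51. For both genes the 72 h array was the lowest in each treatment.

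Among the genes that start mitosis, cyclin B2 Ccnb2 stood at 8.61, 7.23 and 6.13 at 6, 24 and 72 h (difference -1.10), and Cdk1, the kinase it activates, at 8.13, 7.36 and 6.74 at 6, 24 and 72 h (-0.62). The destruction enzyme Ube2c (-1.16), which tags cyclins for removal, was past 2-fold as well. Polo kinase Plk1 (-0.38), Cdc20 (at least 1.41-fold lower) and the Aurora kinases Aurka (-0.76) and Aurkb (-0.66) were not. Topoisomerase Top2a differed by -1.08 on its brightest probe set, and by -0.69 as the mean of its probe sets. Of the spindle and midbody genes, Anln, Tpx2, Cenpe and Cenpf had 72 h levels from 4.35 to 4.92, below the filter, so that their measured differences of -1.36, -1.09, -1.12 and -1.28 have no exact size. The centromere histone Cenpa was the 1 member above 0, at 8.17 and 8.20. With low levels set to the filter, the median of the list was -0.45.

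DNA replication genes differed less than mitosis genes over the same interval: none of 37 was at 2-fold either way, 30 lay below 0 (57.8% of all genes did), and the median was -0.22. That median was -0.10 with the filter at the 75th percentile and -0.084 with low levels set to the filter. The helicase subunit Mcm7 (-0.78) and ribonucleotide reductase Rrm2 (-0.70) were lowest. The sliding clamp Pcna stood at 10.60, 10.15 and 10.18 at 6, 24 and 72 h. Among regulators of G1 and S phase, with a median of -0.32, cyclin A2 Ccna2 was 2.30-fold lower, the repressor E2f8 was at least 1.21-fold lower and Foxm1, the activator of mitotic genes, at least 1.62-fold (both below the filter at 72 h), while cyclin D2 Ccnd2 lay at 0.50. Inhibitors of cyclin-dependent kinases and p53 targets had a median of -0.10 with none of 13 at 2-fold. Outside the lists, and chosen after their values were seen, Cdca3 (-1.26) and Pclaf (-1.01), genes of dividing cells, were also past 2-fold. Hmmr and Knl1, of the same kind, had 72 h levels below the filter and were at least 1.26-fold and 1.46-fold lower.

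The windows before 3 mitosis genes are shown for the same reason, members that were lower together and belong to a class with known promoter elements, the CHR element and CCAAT boxes. They lie at chr9:70421555-70421804 (- strand) for Ccnb2, chr2:164769679-164769928 (+ strand) for Ube2c and chr11:99024190-99024439 (- strand) for Top2a, on GRCm38.p6 as above. Capitals mark CCAAT and the CHR letters TTTGAA or TTCGAA, on either strand, so that ATTGG and TTCAAA are matches on the other strand. In Ube2c a pair of CCAAT matches on opposite strands overlap.
Ccnb2: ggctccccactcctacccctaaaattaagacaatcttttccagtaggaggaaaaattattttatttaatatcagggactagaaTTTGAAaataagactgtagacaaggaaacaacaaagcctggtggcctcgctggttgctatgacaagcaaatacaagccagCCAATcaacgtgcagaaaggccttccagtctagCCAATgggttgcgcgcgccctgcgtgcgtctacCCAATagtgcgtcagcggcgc
Ube2c: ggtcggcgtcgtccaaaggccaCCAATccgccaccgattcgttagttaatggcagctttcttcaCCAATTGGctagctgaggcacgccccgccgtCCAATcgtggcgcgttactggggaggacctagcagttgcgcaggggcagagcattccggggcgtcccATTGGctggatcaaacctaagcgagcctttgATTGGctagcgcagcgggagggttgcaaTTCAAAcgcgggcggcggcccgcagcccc
Top2a: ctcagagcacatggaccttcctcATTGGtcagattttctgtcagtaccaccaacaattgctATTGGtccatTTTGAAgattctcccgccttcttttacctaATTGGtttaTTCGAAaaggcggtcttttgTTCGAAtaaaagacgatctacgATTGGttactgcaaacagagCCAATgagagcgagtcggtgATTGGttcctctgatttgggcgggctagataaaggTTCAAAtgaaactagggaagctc
Of the 37 mitosis genes with a window, 27 (73.0%) held CCAAT, against 35.9% of all windows, and 14 (37.8%) held a CHR match, against 12.3%. Of the 3 genes shown, Ccnb2 has 3 CCAAT matches in the 87 bases nearest its start, and Ube2c and Top2a have a CHR match within the last 29 bases. Birc5, the lowest of the list, held neither motif in this window.

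The lowest differences of all belonged to a mixed group of lectins, chemokine and enzyme genes. Ccl17 (probe set 10574226), a chemokine that attracts T cells, stood at 12.07, 9.23 and 6.44 at 6, 24 and 72 h in vehicle, 6.91-fold lower at 72 h than at 24 h, and at 12.64, 11.51 and 6.54 with heme. Both macrophage galactose lectins, Mgl2 and Clec10a, were lower. Mgl2 levels were 10.43, 9.27 and 6.49 at 6, 24 and 72 h in vehicle, 6.86-fold lower at 72 h than at 24 h, and 10.35, 9.27 and 8.56 with heme. Clec10a levels were 7.92, 7.91 and 5.69 at 6, 24 and 72 h in vehicle and 7.53, 7.78 and 7.60 with heme, so that the vehicle 72 h array lay below the other 5, which spanned 7.53 to 7.92, and 4.66-fold below the vehicle array at 24 h. Retnla, which encodes RELM alpha, stood at 7.96, 7.59 and 5.34 at 6, 24 and 72 h in vehicle, at least 4.64-fold lower.

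These 4 genes were the ones past 2-fold among 15 targets of IL-4 and STAT6 (0.729% of all genes were 2-fold lower). The median of that list was -0.07. Its other members lay between -0.25 (Alox15, below the filter on both arrays) and 0.79 (Tgm2, transglutaminase), with Mrc1 at -0.15, Chil3 at -0.04 and Arg1 at 0.05. Carbonic anhydrase Car4 had vehicle levels of 11.86, 11.08 and 8.48 at 6, 24 and 72 h and heme levels of 12.11, 10.93 and 8.53, with the 72 h level lowest in both. Cyp4a12b and Cyp4a12a, fatty acid hydroxylases whose near-identical sequences make their separate values uncertain, were at least 12.2-fold and 8.47-fold lower. Cyp4a12b stood at 8.36, 8.99 and 4.94 at 6, 24 and 72 h in vehicle and 7.06, 5.59 and 3.98 with heme. Others of the 20 lowest were the adhesion molecule gene Jaml (at least 3.24-fold lower), the Fc receptor-like gene Fcrls (-1.57), the kallikrein gene Klk1b9 (-1.77), the TNF family ligand Tnfsf8 (at least 2.80-fold lower), the growth factor Pgf (at least 2.67-fold lower) and Ifitm1 (-1.44), whose other probe set gave -1.60. Tnfsf8 stood at 7.33, 6.86 and 5.21 at 6, 24 and 72 h in vehicle, and at 6.39, 4.87 and 4.58 with heme.

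Granule genes of neutrophils were lower in part. Of 18 kept genes of the neutrophil list 6 were at 2-fold or more lower (0.729% of all genes were) and 1 at 2-fold higher (0.512%), with a median of -0.28. With the filter at the 75th percentile the median was -0.88. S100a9, a subunit of calprotectin, stood at 12.08, 9.53 and 7.25 at 6, 24 and 72 h in vehicle and 12.13, 11.66 and 8.30 with heme. Its partner S100a8 differed by -0.53 (9.91 and 9.38). The vehicle level of the granule protein Ngp was 9.83, 6.58 and 5.02 at 6, 24 and 72 h, at least 2.30-fold lower. Wfdc21 (-1.85), the bacterial wall receptor Pglyrp1 (-1.36), the siderophore binder Lcn2 (-1.23) and the protease inhibitor Stfa3 (-1.15) made up the rest. Stfa3 is from a family of close copies, and its 72 h level below the filter leaves a bound of 1.17-fold.

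Other neutrophil genes differed less or were higher. The cathelicidin Camp stood at 6.30 and 6.04 at 24 and 72 h after 9.18 at 6 h, and Ltf, lactoferrin, at 5.09 and 5.16 after 7.12. Mmp8 (-0.18) differed little, and the chitinase-like Chil1 (1.02) and the G-CSF receptor Csf3r (0.89) were higher. Of 6 defining neutrophil markers, 2 (Camp and Ngp) were above the filter at 24 h and 1 (Camp) at 72 h. The summed log2 level of the 6 was 31.4 and 29.9. Ngp alone differed by -1.56, and the others lay between -0.265 (Camp) and 0.45 (Cxcr2, below the filter on both arrays). Ly6g stood at 3.98 and 3.96. Prg2, the major basic protein of eosinophil granules, was at least 3.65-fold lower (vehicle 9.22, 7.24 and 5.35 at 6, 24 and 72 h), and Rnase2a, an eosinophil-associated ribonuclease of a family of close copies, 5.91-fold lower (11.79, 11.77 and 9.21 at 6, 24 and 72 h), while the eosinophil peroxidase gene Epx (4.76 and 4.63) and Il5ra (2.78 and 2.80) lay below the filter on both arrays. The part of neutrophil and eosinophil numbers in these values was not tested.

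**Figure D3:**
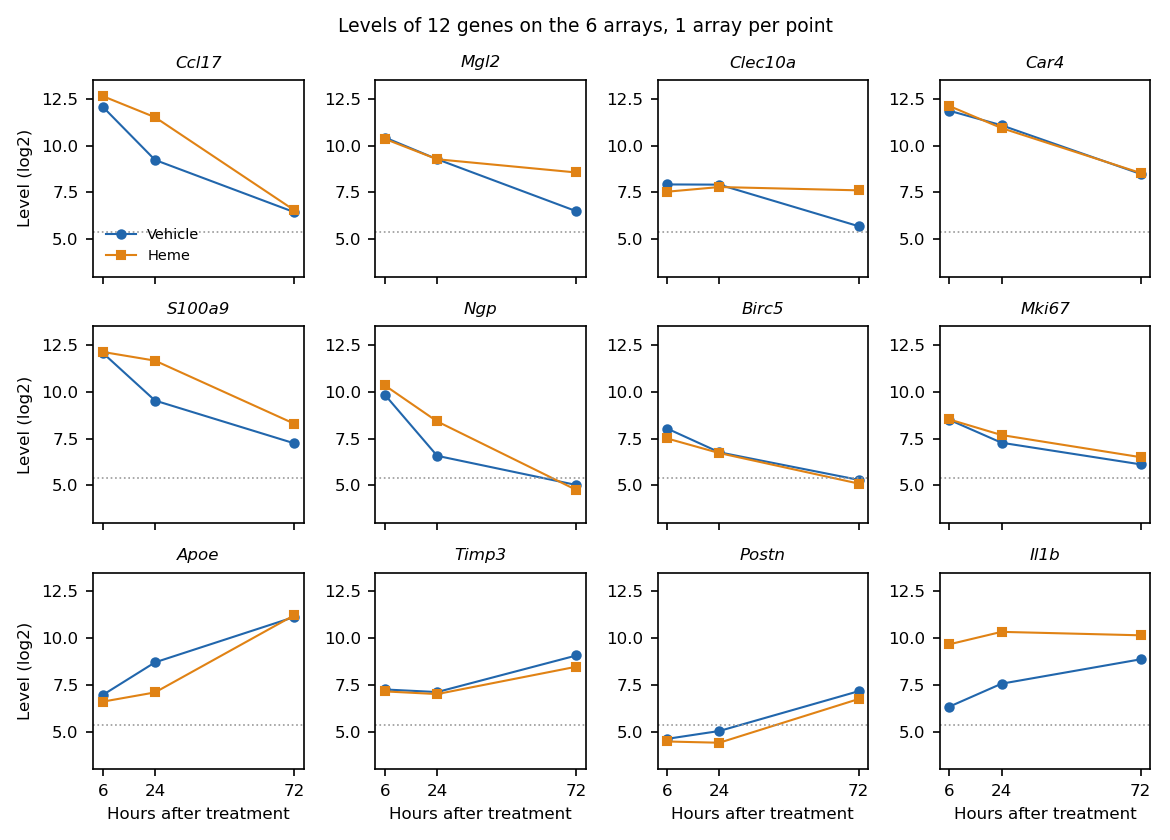
Log2 levels of 12 genes at 6, 24 and 72 h on the vehicle arrays (blue circles) and the heme arrays (orange squares), 1 array per point with no error; the dotted line is the level filter of 5.37. Of these 12 genes the vehicle levels at 24 and 72 h lie furthest apart for Ccl17 (9.23 and 6.44) and Mgl2 (9.27 and 6.49), and for Mgl2 and Clec10a the 72 h vehicle point lies well under the heme point.

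Matrix and stromal genes were higher at 72 h. Of 19 genes of the stromal list with a probe set, 13 were kept. All 13 lay above 0 (42.1% of all genes did), 4 were at 2-fold or more higher (0.512% of all genes were), and the median was 0.67. Periostin Postn, a matrix protein of fibroblasts, stood at 4.62, 5.04 and 7.16 at 6, 24 and 72 h in vehicle and 4.47, 4.41 and 6.74 with heme, at least 3.45-fold higher at 72 h. Postn was kept through the 72 h arrays alone, so its place in these counts follows in part from the filter. Timp3, an inhibitor of metalloproteinases, had vehicle levels of 7.25, 7.12 and 9.07 at 6, 24 and 72 h, 3.87-fold higher, and heme levels of 7.15, 7.01 and 8.47. In both genes the 72 h arrays of either treatment exceeded all 4 earlier arrays. Biglycan Bgn (1.24) and Sparc (1.17) were the others, followed by decorin Dcn (0.89), Acta2 (0.81), Col1a2 (0.61) and Col1a1 (0.60), whereas Col3a1 lay below the filter on both vehicle arrays (5.32 and 5.35).

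Outside that list the collagen cross-linker Lox stood at 6.90, 6.81 and 8.77 at 6, 24 and 72 h in vehicle and 6.20, 6.25 and 8.32 with heme. The secreted factors Ccn2 (1.48) and Ccn1 (1.30), fibulin Fbln2 (1.38), Timp1 (1.48) and the chemokine Cxcl14 (2.24; vehicle 7.46, 7.52 and 9.77 at 6, 24 and 72 h) were likewise among the 20 highest. Igfbp7, Col12a1, Tnc and Plod2, named after their values were seen, had 24 h levels of 5.10 or below and were at least 2.06-fold, 1.72-fold, 1.20-fold and 1.34-fold higher. Of the 4 defining stromal markers, Col1a1, Col1a2 and Dcn were above the filter on both arrays and Pdgfra on neither (5.02 and 4.85), and their summed log2 level was 24.8 at 24 h and 26.7 at 72 h. The part of stromal cell number in these values was not tested. On the heme arrays the median of the list was 1.37, beside 0.01 for all genes, with 7 genes at 2-fold or more higher (0.912% of all genes were).

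Apoe, the apolipoprotein that carries cholesterol out of macrophages, showed the highest difference of all kept genes. Its level (probe set 10560624) was 6.96, 8.70 and 11.12 at 6, 24 and 72 h in vehicle, 5.36-fold higher at 72 h than at 24 h, and 6.60, 7.10 and 11.22 with heme. Other genes of cholesterol efflux were higher by less: the lipid transfer protein Pltp stood at 9.21, 10.34 and 11.32 at 6, 24 and 72 h (0.98), the transporter Abca1 at 7.87, 9.07 and 9.75 at 6, 24 and 72 h (0.69) and the LXR alpha gene Nr1h3 differed by 0.67. Abcg1 (0.05), Mylip (0.30) and Srebf1 (-0.10) lay between -0.10 and 0.30, and Scd1 and Scd2, which LXR also targets, were lower as given above. The lipid list as a whole had 1 of 23 genes at 2-fold or more higher (0.512% of all genes were), 2 lower (0.729%) and a median of 0.29. Among uptake and storage genes, Lpl (0.51), Lipa (0.51) and Cd36 (0.55) were above 0 and Plin2 (-0.06) and Fabp4 (-0.12) slightly below.

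Macrophage genes showed small positive differences for the most part. Of 50 kept genes 40 lay above 0 (42.1% of all genes did), 2 were at 2-fold or more higher (0.512% of all genes), Apoe and the sialic acid receptor Siglec1 (1.03), and none was at 2-fold lower, with a median of 0.14. Siglec1 was under 2-fold after median-centring (0.98). The Fc receptor Fcgr4 (0.72), the lipid receptor Trem2 (0.69), the apoptotic cell receptor Mertk (0.50) and Spic (0.60; vehicle 5.76, 6.09 and 6.69 at 6, 24 and 72 h) were above 0 by less than 2-fold. Id3, a transcriptional inhibitor, was kept through the vehicle 72 h array alone (4.58 at 24 h, 5.40 at 72 h), which leaves a bound of 1.02-fold. The scavenger receptor Marco was lowest, at 7.96, 6.97 and 6.06 at 6, 24 and 72 h in vehicle against 8.88, 9.12 and 10.90 with heme. Lyz2, C1qb, C1qc and Tyrobp differed by 0.05 or less. Single genes among the 20 highest included Cd300ld, a myeloid receptor (vehicle 6.88, 8.04 and 9.92 at 6, 24 and 72 h), Adgre4, an adhesion receptor of macrophages (4.94, 7.15 and 8.81 at 6, 24 and 72 h), the acid sensor Gpr65 (5.23, 6.28 and 7.98 at 6, 24 and 72 h) and Hamp, hepcidin, which acts on ferroportin, at least 3.51-fold higher (4.98, 5.30 and 7.19 at 6, 24 and 72 h).

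Receptors of the growth factor in the medium differed by less than 2-fold. The GM-CSF receptor chains Csf2ra and Csf2rb differed by 0.47 and 0.12, the related Csf2rb2 by 0.47 and Csf1r by 0.23. The 95th percentile over all genes was 0.42. Cish, a feedback inhibitor induced through STAT5 by such cytokines, stood at 9.79, 8.23 and 6.90 at 6, 24 and 72 h in vehicle, 2.50-fold lower at 72 h than at 24 h, and at 10.21, 8.54 and 6.73 with heme. It was the 1 gene of 20 in its list past 2-fold in the lower direction (0.729% of all genes were). The median of the list was 0.16. The related Socs2 (-0.26), Socs3 (-0.33) and Pim1 (-0.27) were lower by less than 2-fold.

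Inflammatory genes were higher in part. Of 40 kept members 5 were at 2-fold or more higher (0.512% of all genes were), none was 2-fold lower, 28 lay above 0 (42.1% of all genes did) and the median was 0.29. With low levels set to the filter the median was 0.17. The cytokine Il1b stood at 6.33, 7.56 and 8.87 at 6, 24 and 72 h in vehicle and at 9.67, 10.33 and 10.15 with heme, so every heme level lay above every vehicle level. The chemokine Ccl5 had vehicle levels of 7.71, 7.17 and 8.38 at 6, 24 and 72 h (1.21), and the acute-phase gene Saa3 6.66, 8.30 and 9.49 at 6, 24 and 72 h (1.19). Prostaglandin synthase Ptgs2, with a 24 h level of 5.12, was at least 2.06-fold higher, and for the platelet chemokine Ppbp (4.97 at 24 h, 6.29 at 72 h) the bound was 1.89-fold. Tnf (0.22), Ccl2 (-0.23), and, below the filter on both arrays, Cxcl10 (-0.05) and Il6 (-0.17) did not reach 2-fold, and Ccl4 (-0.66) was lowest.

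Genes of antigen presentation and energy supply differed by less than 2-fold with few exceptions. The median of 10 MHC class II genes was -0.21, or -0.12 after a second quantile normalization. Of the 10, 7 lay below 0 (57.8% of all genes did). The exchange inhibitor subunit H2-Oa differed by -1.01 (-0.97 after cyclic loess), and its partner H2-Ob, below the filter at 72 h, was at least 1.64-fold lower. Ciita (-0.50), H2-DMa (-0.45) and H2-Ab1 (-0.20) were lower by less than 2-fold, while H2-Aa (-0.07) and Cd74 (0.07) lay near 0. Dendritic cell genes had a median of 0.01, with Clec9a (1.01) and Cd200 (1.02) at the 2-fold line and Ccl17, Mgl2 and Clec10a past it in the lower direction. The 24 h level of Cd200 lay below the filter, which leaves a bound of 1.63-fold. Both Clec9a and Cd200 were under 2-fold after each of 3 other normalizations, between 0.96 and 0.99. Osteoclast and fusion genes had a median of 0.49 over 9 kept members, or 0.38 with low levels set to the filter. Among them were Acp5 (0.61), a phosphatase of osteoclasts, and Ocstamp (0.84), a membrane protein of cell fusion. Carbonic anhydrase Car2 was kept through the vehicle 72 h array alone (4.49 at 24 h, 5.51 at 72 h, a bound of 1.10-fold), and Mmp9 lay below the filter on both vehicle arrays. Monocyte genes had a median of -0.16, or -0.063 with low levels set to the filter and -0.040 with no filter, with the coagulation factor gene F13a1 at 7.35, 7.08 and 6.02 at 6, 24 and 72 h in vehicle and 7.14, 7.20 and 7.93 with heme.

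Several other lists held 1 or 2 genes past 2-fold (1.24% of all genes were), or none. In the list of heme and iron genes (0.09, 35 kept) Hamp was higher and Lcn2 lower. Among antioxidant genes (0.09) the secreted peroxidase Gpx3 differed by 1.02, among immediate early genes (0.16) Fosb by -1.31, and among glycolysis and hypoxia genes (-0.20) Ankrd37 by -1.31. In a list of genes of alveolar macrophages (-0.04, or 0.047 with the filter at the 75th percentile) Car4 was past 2-fold. There the fatty acid binder Fabp1 had a measured difference of -1.24, but its 72 h level below the filter leaves a bound of 1.13-fold. H2bc3 (-1.21) was the 1 of 10 histone genes past 2-fold, in a family of close copies. Of the 10 histone genes 8 lay below 0 (57.8% of all genes did). The median of the 10 was -0.44, or -0.23 with the filter at the 75th percentile. Interferon-stimulated genes (-0.06, 24 kept), ribosome biogenesis genes (-0.13, 28) and chaperones of the endoplasmic reticulum (-0.17, 18) held none. In the same order, 14, 21 and 17 of them lay below 0 (57.8% of all genes did). Respiratory chain genes had a median of -0.23 with none of 32 at 2-fold, and 28 of the 32 lay below 0. Lysosomal genes had a median of 0.04 with none of 39 at 2-fold, and 26 of the 39 lay above 0 (42.1% of all genes did).

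The heme arrays cover the same interval without sharing an array with the vehicle pair. From 24 to 72 h they had 105 genes at 2-fold or more higher and 109 lower (0.912% and 0.947%, together 1.86%, against 1.24% in vehicle). Of the 59 genes higher in vehicle, 23 were also 2-fold higher with heme (39.0% of the vehicle list and 21.9% of the heme list), and 54 had the same sign, as 50.9% of all genes had a positive heme difference. Of the 84 genes lower in vehicle, 47 were also 2-fold lower with heme (56.0% and 43.1%), and 80 had the same sign. Of all genes 49.1% had a negative heme difference. The median heme difference was 0.67 for the higher and -1.08 for the lower genes. Across all 11516 genes the 2 changes had a Pearson r of 0.36 and a Spearman rho of 0.18, with no test, since genes are not independent replicates.

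The 5 genes with the widest gap in each direction between the vehicle and the heme difference, picked with low levels set to the filter, are given next. Where the vehicle difference was the higher one, the widest gap was that of Stfa3, with measured differences of -1.15 in vehicle and -4.17 with heme. Its close copy Stfa2 followed (-0.88 and -3.68), and both had 72 h levels below the filter in both treatments. Their 24 h levels were unequal between treatments. In vehicle Stfa2 lay below the filter at 24 h too (4.87) and Stfa3 just above it. With heme the 24 h levels were 8.04 for Stfa2 and 8.45 for Stfa3. The differences of both genes, and so these gaps, have no exact size. Acod1, which makes itaconate in activated macrophages, stood at 6.27, 6.00 and 5.65 at 6, 24 and 72 h in vehicle and at 10.58, 9.75 and 7.01 with heme. The interferon-induced gene Ifi27l2a stood at 10.98, 10.71 and 10.00 at 6, 24 and 72 h and at 10.83, 10.71 and 7.83. Ccl17 was lower at 72 h in both, with differences of -2.79 and -4.97, from unequal 24 h levels (9.23 and 11.51) to like 72 h levels (6.44 and 6.54).

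Where the heme difference was the higher one, Marco had the widest gap in measured differences of these genes. It was lower at 72 h in vehicle (-0.91) and higher with heme (1.79). Cyp4a12b followed, with measured differences of -4.05 and -1.61, then Mgl2 (-2.78 and -0.71), Clec10a (-2.22 and -0.18) and Cyp4a12a (-3.78 and -1.81). The Cyp4a12 genes lay below the filter at 72 h in both treatments, and Cyp4a12a also at 24 h with heme (5.33). With low levels set to the filter, their differences were -3.61 and -0.22 for Cyp4a12b and -3.08 and 0.00 for Cyp4a12a. Those gaps were wider than that of Marco. Some genes past 2-fold in vehicle had the opposite sign with heme. Slamf7, a receptor of the SLAM family, stood at 6.67, 7.16 and 8.22 at 6, 24 and 72 h in vehicle and at 7.57, 7.19 and 6.09 with heme. Cd28, a costimulatory receptor, stood at 6.76, 7.50 and 6.34 at 6, 24 and 72 h and at 5.83, 5.59 and 6.11. None of these gaps between treatments was tested.

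**Figure D4:**
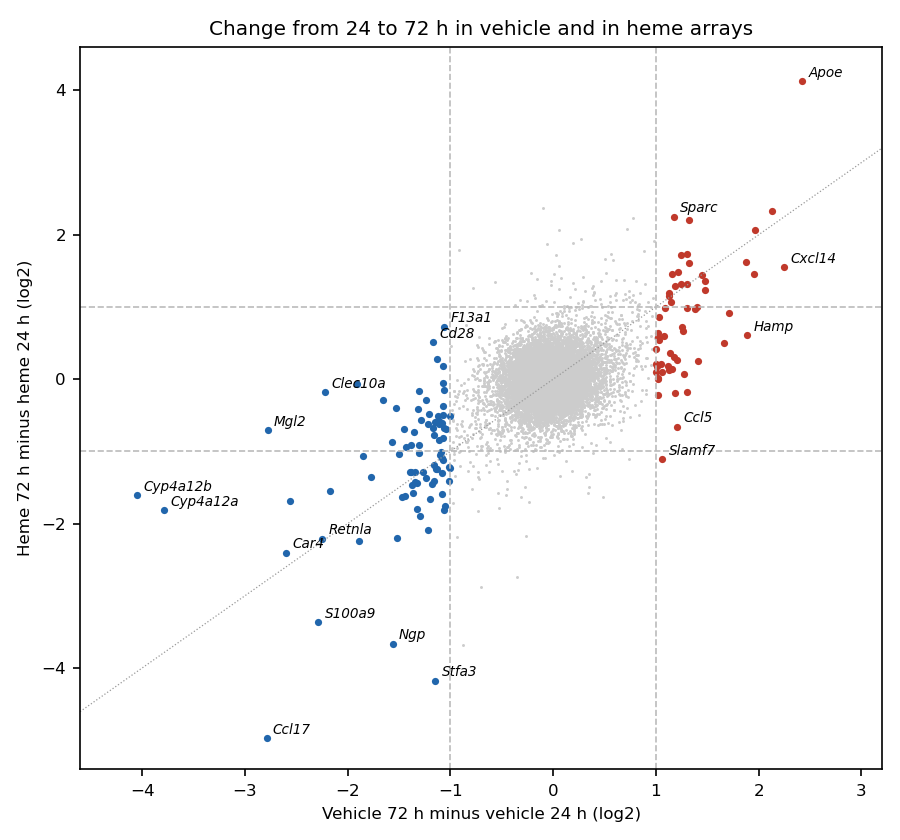
Each point is 1 of 11516 genes, placed by its change from 24 to 72 h on the vehicle arrays (x axis, log2) and on the heme arrays (y axis, log2); red and blue mark genes past 2-fold in vehicle, dashed lines 2-fold and the dotted line equal change. Apoe lies at the top right (2.42 and 4.12), Ccl17 at the bottom (-2.79 and -4.97), and Slamf7 is the 1 red gene 2-fold lower with heme (1.06 and -1.10).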

How the data were processed

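The members and gene lists were chosen with earlier results of these data known. Log2 values of 35556 probe sets on 6 mouse gene arrays were deposited by the authors, summarised with RMA and quantile normalization in ArrayStar per the series' design text and the submitters' processing notes, and used without further normalization; no version is stated. The platform annotation gave a single gene for 21789 probe sets, several for 1621 and none for 12146; 21698 matched a symbol of the GRCm38.p6 gene table. For each of 19938 genes the probe set with the highest mean over 6 arrays was kept, and 11516 genes reached the level filter. The difference between 2 arrays was taken with no test, since each group has 1 array, and a gene was counted at 2-fold or more (1.0 on the log2 scale). Named were the 20 highest and 20 lowest genes with low levels set to the filter, list members past 2-fold, up to 6 further members per list with the largest differences and the one nearest 0, and genes with the widest gap to heme; other genes named for their role were chosen after their values were seen. Promoter letters were searched in the 250 bases before the start. The counting script was tested on simulated data. Computations used Python and, for cyclic loess, R. The number of arrays limits the precision.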

Additional observations from a re-analysis of the deposited data

Results flagged for a closer look

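The following values had opposite signs in the vehicle and the heme pair between 24 and 72 h, with 1 array for each value, and the difference between the pairs was not tested. Ccl5 was higher at 72 h in vehicle (1.21) and lower with heme (-0.66). Its heme levels were 10.20, 10.40 and 9.75 at 6, 24 and 72 h, each above every vehicle level (7.71, 7.17 and 8.38). Slamf7 was likewise higher in vehicle (1.06) and lower with heme (-1.10). Cd28 was lower in vehicle (-1.17) and higher with heme (0.51). F13a1 was lower in vehicle (-1.06) and higher with heme (0.73). The median of the inflammatory list was 0.29 in vehicle and -0.21 with heme. Its mean level was 7.15 and 7.48 at 24 and 72 h in vehicle, and 8.44 and 8.36 with heme.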

How the results depend on the processing

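No paired analysis was possible because each group has 1 array and the labels carry no replicate numbers; for the same reason no array could be left out. Against 59 higher and 84 lower genes at 2-fold, a level filter at the 75th percentile left 38 higher, an offset of 16 on the linear scale 32 and 44, a 1.5-fold threshold gave 261 and 336, and a 4-fold threshold 3 and 10. The other counts stayed within 1.5 times. List medians that moved by over 0.09 were, with the 75th percentile filter, DNA replication -0.10, mitosis -0.82, histones -0.23, neutrophil -0.88, alveolar macrophage 0.047, osteoclast 0.38, stromal 0.89, megakaryocyte 0.63 and plasmacytoid 0.41. With low levels set to the filter they were DNA replication -0.084, mitosis -0.45, DNA repair 0.00, monocyte -0.063, osteoclast 0.38 and inflammatory 0.17. With the offset they were mitosis -0.55 and stromal 0.57. Without a filter they were progenitor 0.056, monocyte -0.040, osteoclast 0.40 and megakaryocyte 0.25. With cyclic loess they were progenitor -0.14 and stromal 0.77, and with a second quantile normalization MHC class II -0.12. Apart from the lists with fewer or more genes under another filter, the cause was not tested. None of the 78 genes at 2-fold that were named by the rule given above changed sign under these alternatives. Of these, 23 fell under 2-fold in at least 1 alternative. Genes named outside that rule, among them Slamf7, Cd28, Cdca3 and Pclaf, were not checked singly. Levels below the filter are not shown to be above background.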
